A study of Mus musculus with 6 samples.

Results

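The Wnt ligands described here are 9 genes of the Wnt family, given as a list of names and Ensembl identifiers that was drawn up with earlier results of these data known. They are Wnt10a, Wnt10b, Wnt6, Wnt3, Wnt3a, Wnt4, Wnt7b, Wnt5a and Wnt11. All 9 had a row among the 25949 probe sets of the arrays, and 0 had none. A probe set is here the group of array probes summarised as 1 value for a gene.

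Expression was profiled on 6 Affymetrix Mouse Exon 1.0 ST arrays, 3 per condition, to look for genes that respond early to Eda. The tissue was E13.5 mammary buds of Eda-/- mice on a B6CBA background, so both conditions lack the endogenous ligand. Control buds were kept for 4 h without added protein, and Fc-Eda buds were kept for 4 h with 250 ng/mL of recombinant Fc-Eda-A1. Buds of each embryo were divided between the conditions, and pools with the same replicate number therefore form a pair. Each pool held about 20 buds of 5 to 6 embryos by the sample descriptions, and 15 to 20 buds of 4 or 5 embryos by the methods. The buds were dissected as epithelium and most, but not all, of the mesenchyme around them was taken away by hand. Markers of epithelium and mesenchyme were not analysed here, because 0 of the identifiers could be named from the reference table. In such pools, fewer cells of a type and less RNA per cell cannot be told apart.

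Wnt proteins are secreted, lipid-modified ligands that bind Frizzled receptors. In the canonical pathway, ligand bound to Frizzled and the co-receptors Lrp5 and Lrp6 stabilises β-catenin, which enters the nucleus and activates target genes with Tcf/Lef factors. In embryonic skin this branch acts at the start of hair follicles, teeth and mammary glands, where blocking secreted Wnts stops their development. Eda is a ligand of the tumor necrosis factor family that acts through its receptor Edar and the transcription factor NF-κB in hair, tooth and mammary primordia.

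All values are log2 levels as deposited, and the differences are Fc-Eda minus control on the log2 scale. The array of control replicate 1 stood apart from the others. Its median over all probe sets was 4.99, against 4.80 to 4.83 on the other 5 arrays. The median difference of pair 1 depended on level, with -0.29 among probe sets near a level of 3.92 and 0.14 among those near 7.30. In pairs 2 and 3 the medians of all 20 level groups lay between -0.02 and 0.06. Averaged over the arrays, the Wnt ligands lay between percentiles 51.1 (Wnt3a) and 89.1 (Wnt4) of brightness. Probe sets differ in their probes, so that these levels do not rank the ligands by amount of transcript.

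**Figure D1:**
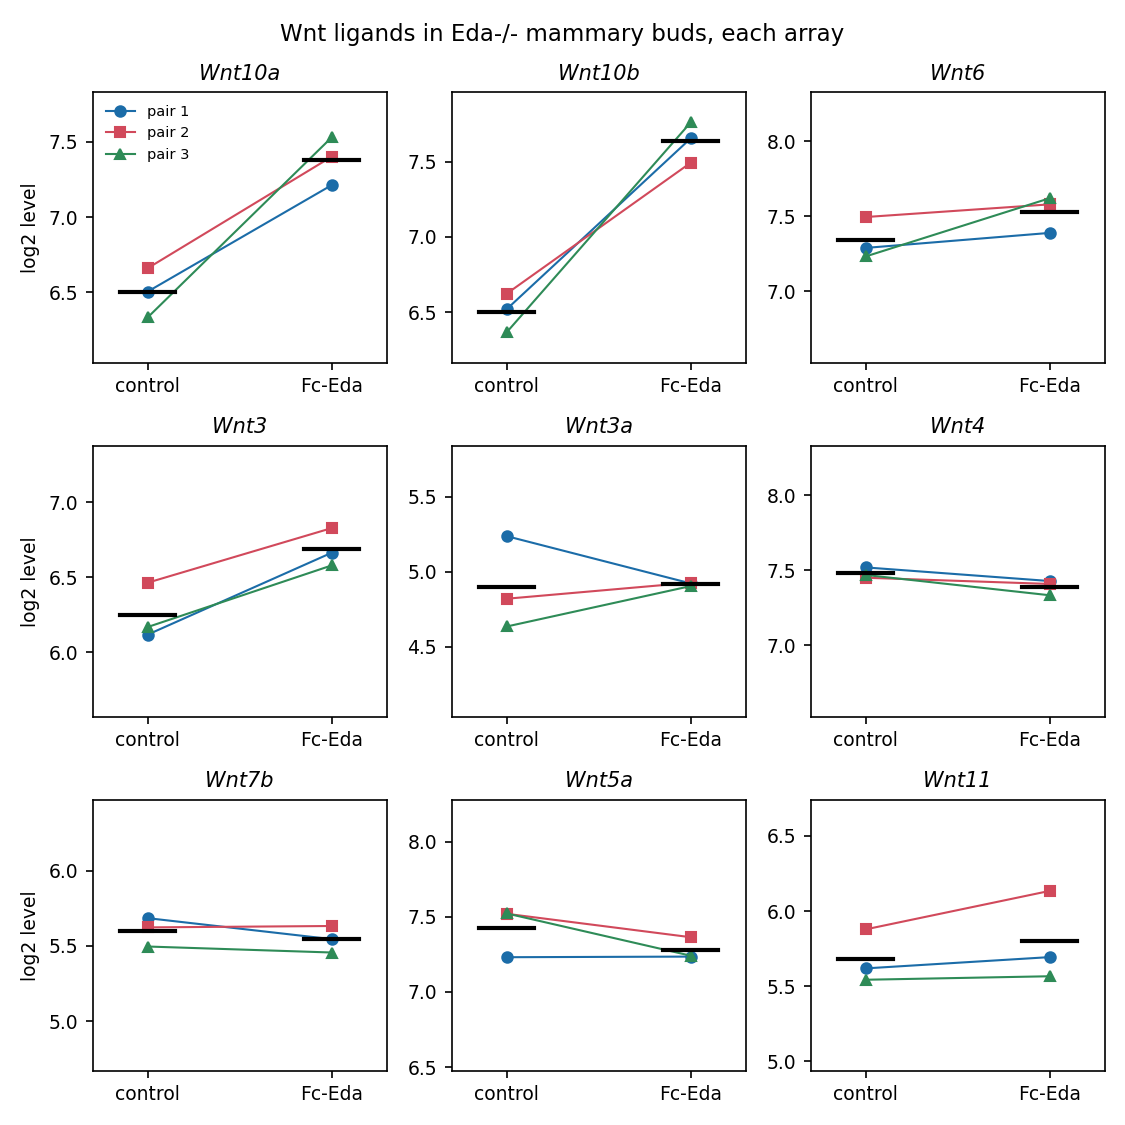
Log2 level of each Wnt ligand on each array, with control on the left and Fc-Eda on the right of every panel. Symbols joined by a line are the arrays of 1 pair, black bars are means of 3 arrays, and every panel spans 1.8 log2 units. Wnt10a, Wnt10b and Wnt3 are higher with Fc-Eda in every pair with no overlap between conditions, while Wnt3a is lower in pair 1 and higher in the others.

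Wnt10b and Wnt10a, canonical ligands made by the epithelium of the mammary bud, had the largest differences of the 9. Wnt10b (ENSMUSG00000022996_at) was at 6.52, 6.62 and 6.37 in control replicates 1, 2 and 3, and at 7.66, 7.49 and 7.76 in the Fc-Eda replicates. The lowest Fc-Eda array and the highest control array were both of replicate 2, and they were 0.87 apart. The mean was 6.50 ± 0.13 (SD, n = 3) in control buds and 7.64 ± 0.13 in Fc-Eda buds. The difference was 1.13, 0.87 and 1.39 in pairs 1, 2 and 3, with a mean of 1.13 and a standard error of 0.12, which is a 2.19-fold level (95% interval 1.77 to 2.72). Among all probe sets this mean difference ranked 19th from the top.

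Wnt10a (ENSMUSG00000026167_at) was at 6.50, 6.66 and 6.33 in the control replicates and at 7.21, 7.40 and 7.53 after Fc-Eda. Again no Fc-Eda array reached down to a control array. The mean difference was 0.88 with a standard error of 0.13, from pair differences of 0.71, 0.74 and 1.20, which is a 1.84-fold level (95% interval 1.48 to 2.30). It ranked 38th of all probe sets. The difference was greater for Wnt10b than for Wnt10a in each pair, by 0.43, 0.13 and 0.20, a mean of 0.25 ± 0.16 (SD, n = 3 pairs). No test of the difference between the 2 genes was made. For both genes pair 3 had the greatest difference, and its control array was the lowest and its Fc-Eda array the highest of the 3.

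Whether these differences passed a test depended on the test, on the scaling of the arrays and on which dim probe sets were kept. In limma, with the pairs as a block and Storey q-values over all probe sets, q was 0.167 for Wnt10b and 0.258 for Wnt10a, and 0 of the 9 ligands were called at 0.05, where 0% of all probe sets were. At an unadjusted p under 0.05 limma had 3 of the 9 higher (Wnt10b, Wnt10a and Wnt3), against 2.73% of all probe sets, and 0 of the 9 lower, against 3.33%. The same limma model called both Wnt10b and Wnt10a after median centring of the arrays (q = 0.0146 and 0.0292). Of all probe sets, 0.216% were then called higher. It also called both among the 12974 probe sets above the median level (q = 0.0185 and 0.0348), with 0.655% of those called higher. It called neither gene after quantile normalization (q = 0.206 and 0.285) or after cyclic loess (q = 0.200 and 0.277). Above the 25th percentile of level it called neither as well (q = 0.101 and 0.151). In each of these settings 0% of probe sets were called higher. The mean difference of Wnt10a was 0.94 after median centring, and 0.84 after either of the other scalings. IBMT, the intensity-based moderated test that the study also used, called Wnt10b (q = 0.0124) and Wnt10a (q = 0.0266) higher, with 0.339% of all probe sets called higher. The Cyber-T type test, a paired test that shrinks each variance towards that of probe sets of like level, called Wnt10b (q = 0.000275), Wnt10a (q = 0.00179) and Wnt3 (q = 0.0237) higher, with 0.624% of all probe sets called higher. Without pair 1 the IBMT q was 0.228 for Wnt10b and 0.232 for Wnt10a, where the differences were 1.13 and 0.97, against 1.13 and 0.88 with all pairs. The prior degrees of freedom of IBMT were then 2.97, against 5.01 with all pairs, and 0% of all probe sets were called higher. In the Cyber-T type test both genes stayed under 0.05 with any pair left out. Its prior weight of 10 was not changed, so the variances then came mostly from probe sets of like level. Of all probe sets, 1.3%, 0.316% and 0.301% were called higher without pairs 1, 2 and 3.

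**Figure D2:**
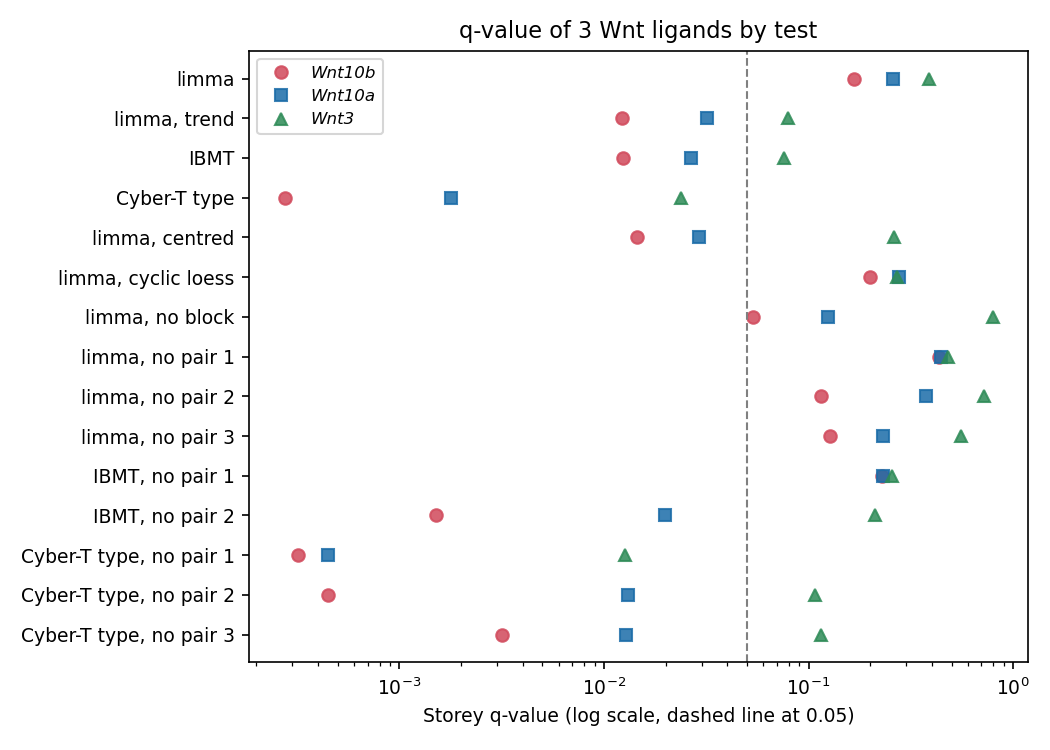
Storey q-value, on a log scale, of Wnt10b, Wnt10a and Wnt3 under each test and setting named on the vertical axis, with a dashed line at 0.05. Default limma leaves all 3 above the line (0.167, 0.258 and 0.386), the Cyber-T type test on all pairs leaves all 3 below it, and IBMT without pair 3, where its prior was infinite, is not drawn.

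The promoter of Wnt10b is shown as that of the ligand with the largest difference. Sequences came from RefSeq, GRCm38.p6, and were matched by symbol in windows from 250 bases before to 50 after a start site. The table held 7 such windows for 6 of the 9 ligands, and Wnt10a, Wnt7b and Wnt5a were not matched. Both strands were searched for the κB consensus of NF-κB and for the Tcf/Lef cores CTTTGAA and CTTTGAT, which do not overlap with it in these windows. The κB consensus was found in 8.46% of all 32851 windows and a Tcf/Lef core in 8.65%. The Wnt10b window held the κB consensus at 2 places, from -204 to -195 and from -40 to -31 relative to the start site of the window. The nearer match lies past the outermost annotated start of the gene, inside its annotated span, and only the farther one lies before it. The windows of Wnt6, Wnt3, Wnt3a, Wnt4 and Wnt11 held no κB match in these letters, and 1 of the 2 Wnt11 windows held a Tcf/Lef core. A match is a likeness of letters and was not tested as a binding site. Whether matches go with the differences was not tested, and Wnt3, also higher without overlap, had none in its window. Below are the letters before the outermost annotated start of Wnt10b (chr15:98778207-98778400, minus strand), with the farther κB match in capitals, and those before the start of Wnt4 (chr4:137277385-137277634, plus strand), a ligand with a small difference and no match.
Wnt10b: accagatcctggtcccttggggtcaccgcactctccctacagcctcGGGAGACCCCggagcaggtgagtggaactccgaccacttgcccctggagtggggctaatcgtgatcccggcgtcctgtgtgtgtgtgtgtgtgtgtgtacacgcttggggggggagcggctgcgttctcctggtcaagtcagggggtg
Wnt4: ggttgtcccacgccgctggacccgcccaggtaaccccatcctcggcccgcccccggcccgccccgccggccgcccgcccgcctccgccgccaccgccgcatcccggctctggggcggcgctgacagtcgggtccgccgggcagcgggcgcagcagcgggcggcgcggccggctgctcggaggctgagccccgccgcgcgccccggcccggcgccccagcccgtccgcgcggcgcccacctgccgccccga

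Wnt3 (ENSMUSG00000000125_at), another canonical ligand of embryonic surface epithelium, was at 6.12, 6.46 and 6.17 in the control replicates and at 6.66, 6.83 and 6.58 after Fc-Eda. The 3 Fc-Eda arrays lay above all control arrays, though the gap between the closest was small. Its pair differences were 0.54, 0.36 and 0.41, the most even of the 3 genes that were higher without overlap, with an SD of 0.09 against 0.26 for Wnt10b and 0.27 for Wnt10a. The mean difference was 0.44 with a standard error of 0.09, a 1.36-fold level (95% interval 1.17 to 1.58), with q = 0.386 in limma and 0.0757 in IBMT. The Cyber-T type call of Wnt3 was lost without pair 2 (q = 0.107, difference 0.48) and without pair 3 (q = 0.115, difference 0.45), and was kept without pair 1 (q = 0.0127, difference 0.39). IBMT called Wnt3 without pair 3 (q = 0.0176), a fit with an infinite prior in which 0.987% of all probe sets were called higher. The reference annotation has Wnt9b overlapping Wnt3, and whether probes of this probe set lie in the overlap is not known here.

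Wnt6 (ENSMUSG00000033227_at), a ligand of surface ectoderm, was at 7.29, 7.49 and 7.23 in the control replicates and at 7.39, 7.58 and 7.62 after Fc-Eda. The conditions overlapped. The pair differences of 0.10, 0.08 and 0.39 were all above 0, with a mean of 0.19 and a 95% interval from -0.06 to 0.44 (q = 0.751 in limma). In pair 1 the 1000 probe sets nearest in level had a median difference of 0.13, which is more than that of Wnt6. Wnt6 is the neighbour of Wnt10a on chromosome 1 in the reference annotation. Within each pair the difference of Wnt10a exceeded that of Wnt6, by 0.61, 0.66 and 0.81.

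Wnt3a (ENSMUSG00000009900_at), a canonical ligand best known from the early embryo and its tail bud, was the dimmest of the 9 probe sets. Its control arrays were the most dispersed of any ligand, at 5.24, 4.82 and 4.64, while its Fc-Eda arrays lay at 4.92, 4.93 and 4.90. The Fc-Eda arrays fell inside the range of the controls. The pair differences were -0.31, 0.11 and 0.27, and the 95% interval of their mean ran from -0.32 to 0.36 (q = 0.838 in limma). In pair 1, the 1000 probe sets nearest in level had a median difference of -0.18, and with it taken off the value of Wnt3a was -0.13.

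**Figure D3:**
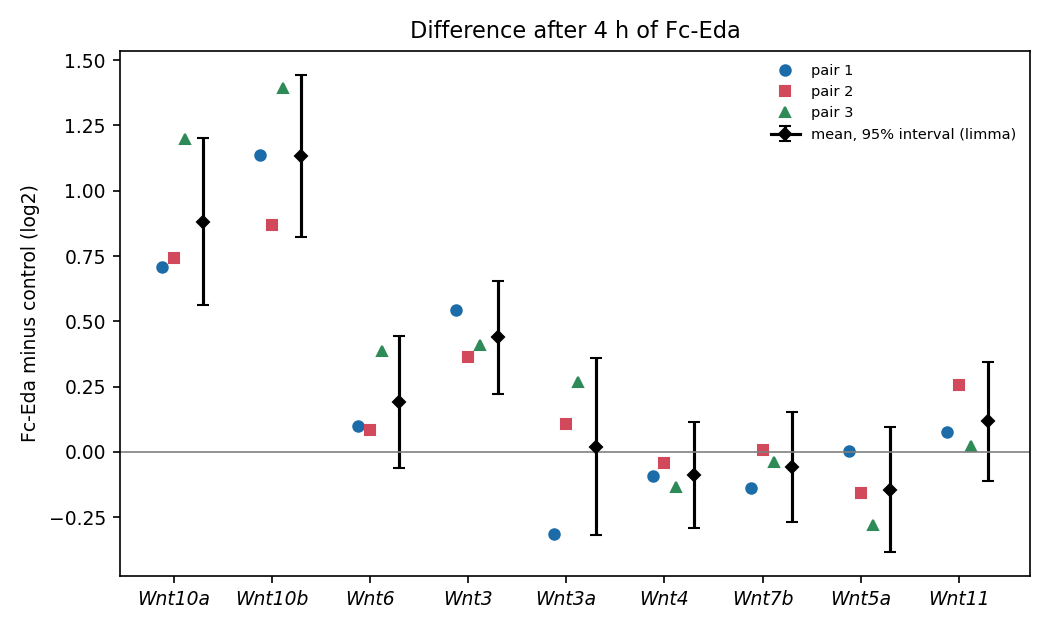
Fc-Eda minus control, in log2 units, for each Wnt ligand. Coloured symbols are the 3 pairs, and black diamonds are the means with 95% intervals from limma. The intervals of Wnt10a, Wnt10b and Wnt3 lie above 0, and those of the other 6 ligands include 0.

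Wnt4 (ENSMUSG00000036856_at), which later acts in the side branching of the adult gland under progesterone, was at 7.52, 7.45 and 7.47 in the control replicates and at 7.43, 7.41 and 7.33 after Fc-Eda. As deposited, it was the only ligand of the 9 that was lower in every pair, and its ranges did not overlap. With the median of probe sets of like level taken off in each pair, Wnt5a was lower in every pair as well. The differences were small, at -0.09, -0.04 and -0.13, with a mean of -0.09 and a 95% interval from -0.29 to 0.12 (q = 0.756 in limma). The SD of its control arrays, 0.04, was the smallest of the 9.

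Wnt7b (ENSMUSG00000022382_at), an epithelial ligand known from lung and kidney development, was at 5.68, 5.62 and 5.50 in the control replicates and at 5.54, 5.63 and 5.46 after Fc-Eda. The conditions overlapped and the pairs did not share a direction, with -0.14, 0.01 and -0.04. The 95% interval of the mean ran from -0.27 to 0.15, that is, from a 0.831-fold to a 1.11-fold level (q = 0.781 in limma).

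Wnt5a and Wnt11 act mainly outside the β-catenin branch, in cell movement and polarity, and Wnt5a is known as a ligand of mesenchyme. Wnt5a (ENSMUSG00000021994_at) was at 7.23, 7.52 and 7.52 in the control replicates and at 7.24, 7.36 and 7.24 after Fc-Eda. Control 1 was as low as the Fc-Eda arrays, so the ranges overlapped. The differences were 0.0041, -0.16 and -0.28, and the 95% interval of the mean, from -0.38 to 0.09, included 0 (q = 0.751 in limma). At the level of Wnt5a, the 1000 nearest probe sets had a median difference of 0.14 in pair 1, against -0.0055 in pair 2 and 0.0046 in pair 3. With these medians taken off, the differences were -0.13, -0.15 and -0.29.

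Wnt11 (ENSMUSG00000015957_at) was at 5.62, 5.88 and 5.54 in the control replicates and at 5.69, 6.13 and 5.57 after Fc-Eda. Both arrays of replicate 2 were higher than the arrays of the other replicates, and the conditions overlapped. The pair differences, 0.07, 0.26 and 0.02, were all above 0, and their mean of 0.12 had a 95% interval from -0.11 to 0.35 (q = 0.753 in limma).

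Across the 9 ligands, 5 were higher after Fc-Eda in all 3 pairs (Wnt10a, Wnt10b, Wnt6, Wnt3 and Wnt11), where 13.2% of all probe sets were. Lower in all 3 pairs was 1 of the 9 (Wnt4), where 15.3% of all probe sets were. When the median of the 1000 probe sets nearest in level was taken off in each pair, 4 were higher in all pairs (15.1% of all probe sets), since Wnt6 was at -0.03 in pair 1, and 2 were lower (14.7%), Wnt4 and Wnt5a. As the ligands were listed with earlier results known, these counts describe them and are no test of the list. The ranges of the 2 conditions were apart, with Fc-Eda above, in 3 of the 9 against 3.98% of all probe sets, and with Fc-Eda below in 1 of the 9 against 5.11%. The median difference of the 9 was 0.12, and that of all probe sets was -0.02. In pairs 1, 2 and 3 the median of the 9 was 0.07, 0.11 and 0.27, beside -0.07, 0.00048 and 0.0085 for all probe sets.

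**Figure D4:**
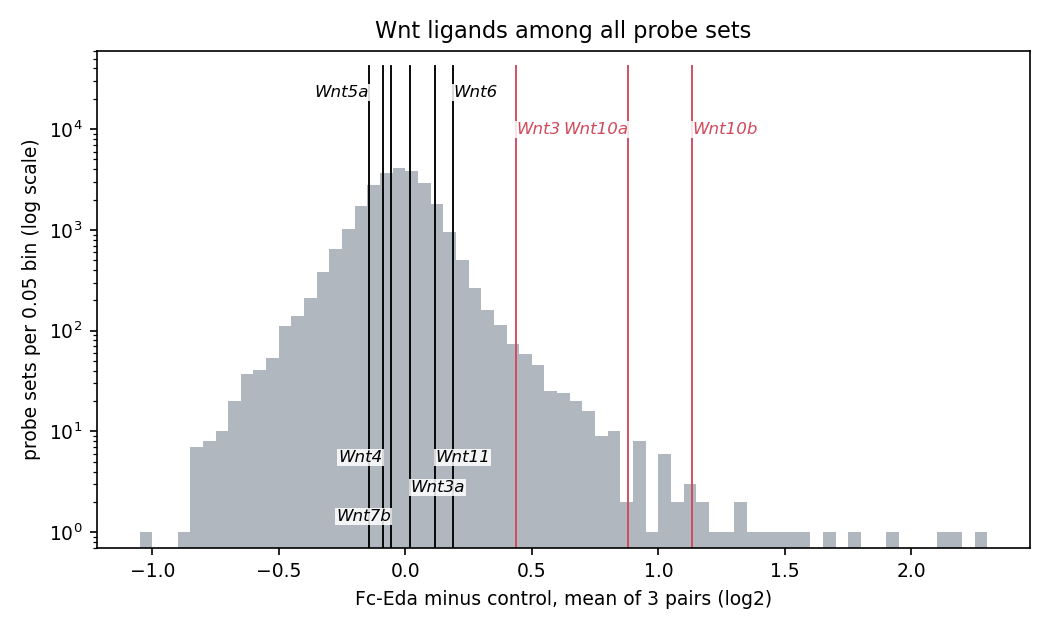
Distribution of the mean difference of 3 pairs over all 25949 probe sets, in bins of 0.05 log2 units with a log vertical axis, and vertical lines at the 9 Wnt ligands. Wnt10b at 1.13, Wnt10a at 0.88 and Wnt3 at 0.44 (red) lie in the upper tail, and the other 6 (black) lie between -0.14 and 0.19.

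The spread between pairs was also read against other probe sets of like brightness. The SD of the 3 pair differences was 0.27 for Wnt10a and 0.26 for Wnt10b, where the median of the 1000 probe sets nearest in level was 0.12 and the 95th percentile 0.30 and 0.29. These genes thus varied more between pairs than most probe sets of their brightness, and their smallest pair differences were 0.71 and 0.87. Wnt4, with 0.05, varied less than the median of its neighbours, 0.11. With the same centring on probe sets of like level, the mean difference was 1.08 for Wnt10b, 0.84 for Wnt10a and 0.40 for Wnt3.

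**Figure D5:**
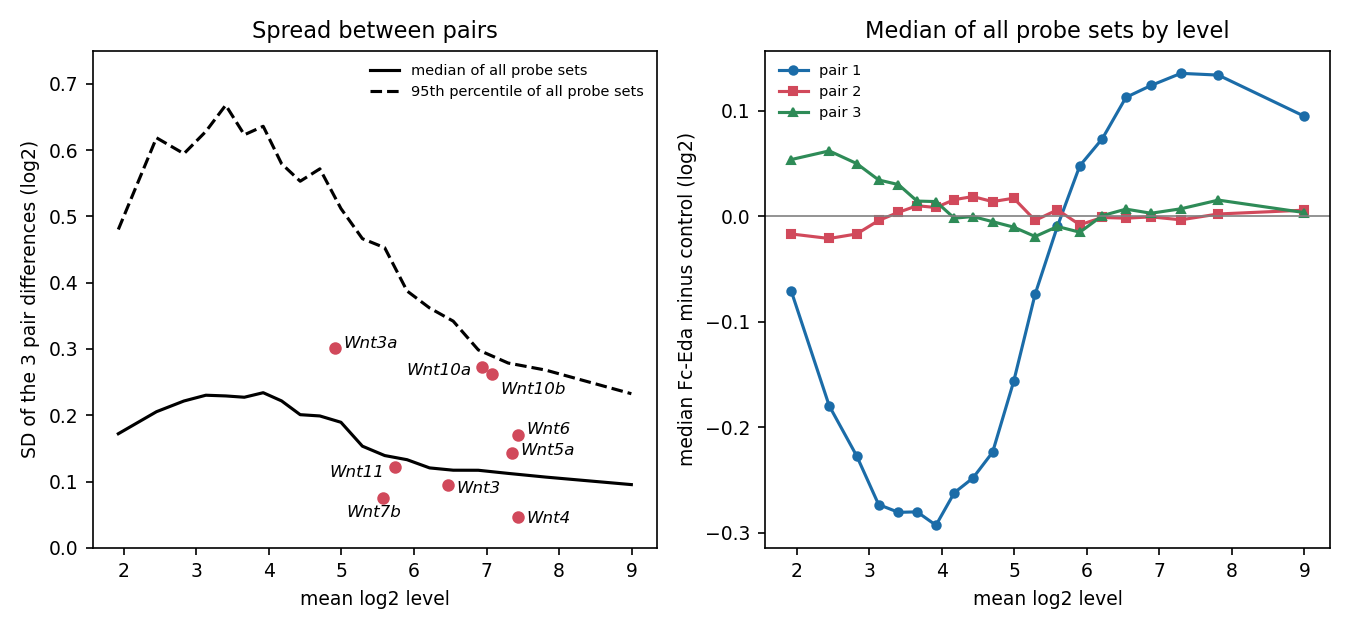
Left, SD of the 3 pair differences against mean log2 level, with the 9 Wnt ligands as red points beside the median (solid) and 95th percentile (dashed) of all probe sets in 20 groups of level. Right, median of Fc-Eda minus control in the same groups for each pair. Wnt10a and Wnt10b sit just under the dashed line, and pair 1 dips to -0.29 at a level of 3.92, peaks at 0.14 at 7.30 and is nearer 0 at both ends, while pairs 2 and 3 stay near 0.

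The pattern over the 6 arrays was compared between genes by Pearson correlation, among 8391 other probe sets whose values spanned at least 0.5. The arrays are paired and carry the treatment, so the correlations describe these arrays only. Wnt10a and Wnt10b correlated with r = 0.975. Wnt10a was 13th of all in likeness to Wnt10b, and Wnt10b 15th in likeness to Wnt10a. Wnt3 was 167th and 131st, with r = 0.846 and 0.878. The other 2 ligands that spanned this much were far less like them, Wnt11 with r = 0.226 to Wnt10b and 0.348 to Wnt10a, and Wnt3a with r = 0.104 and 0.117. The probe set most like Wnt10a was ENSMUSG00000002983_at (r = 0.996, mean difference 1.08), and the one most like Wnt10b was ENSMUSG00000042349_at (r = 0.994, mean difference 0.81). These identifiers have no names here.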

How the data were processed

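The values that the authors deposited are on the log2 scale, with 1 for each probe set on each array, under Ensembl mouse gene identifiers. The submitters' processing notes name RMA, and the probe set definition and genome build are not given in the sources used here. No detection call was used, and precision is limited by the number of arrays. Groups and replicate numbers came from the sample titles, and the dose from the study's methods.

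The main test was limma (3.58.1, run in R 4.3.3) on all 25949 probe sets, where the model held treatment and replicate number. P-values were turned into Storey q-values over all probe sets, with a threshold of 0.05. The numbers pair the arrays because each embryo's buds were divided between conditions, as the sample descriptions state and the methods' paired tests use. The deviations within pairs 1, 2 and 3 correlated with r = 0.079, 0.29 and 0.29. IBMT (loess span 0.75) and the Cyber-T type test (window 101, prior weight 10) were written out from their formulas, and settings of the authors' programs may differ. The tests were tested on simulated data. The p-values of the paired tests rest on the spread of the differences over the 3 pairs of pools. In limma, IBMT and the Cyber-T type test this spread is shrunk towards that of other probe sets.

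Names of the 9 members came with their list. Other Wnt ligands, receptors, targets and cell type markers had been listed but were not analysed here, since their identifiers could not be named. The rule for named genes was all 9 members and the probe sets most like Wnt10a and Wnt10b, of which the first of each 3 is given. The members and lists were chosen with earlier results of these data known. Neighbouring and overlapping genes came from RefSeq's table for GRCm38.p6. Figures were drawn with matplotlib 3.10.9.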

Additional observations from a re-analysis of the deposited data

How the results depend on the processing

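Default limma called 0 of the Wnt ligands and 0 probe sets in either direction at a q-value of 0.05. No replicate block gave 3 probe sets higher and 0 of the ligands, with q = 0.0533 for Wnt10b. The ligands called higher were 2 (Wnt10b and Wnt10a) with IBMT (88 probe sets higher and 6 lower), with limma with trend and robust moderation (90 and 6), with limma above the median of level (85 and 6) and with median centring (56 and 1). They were 3 (with Wnt3) in the Cyber-T type test (162 and 31). A plain paired t-test on the pair differences had the same 3 at an unadjusted p under 0.05 (802 and 696). After Benjamini-Hochberg adjustment that t-test had 0 ligands and 1 probe set lower. Benjamini-Hochberg in limma, the filter at the 25th percentile, quantile normalization and cyclic loess kept the counts at 0. The cause was not tested. With 1 pair at a time left out, limma called 0 ligands and 0 to 10 probe sets higher and 0 to 1 lower. IBMT and the Cyber-T type test without each pair, chosen after seeing the data like the centring on nearby probe sets, called 0 to 3 ligands higher. For IBMT these were 0 without replicate 1 (0 probe sets in either direction), 2 without replicate 2 (54 higher and 2 lower) and 3 without replicate 3 (256 and 269), where its prior was infinite. For the Cyber-T type test they were 3 without replicate 1 (337 and 175), 2 without replicate 2 (82 and 8) and 2 without replicate 3 (78 and 25). A difference can move only with the 3 other scalings, the centring on nearby probe sets and the 3 left-out pairs. Over these 7 settings it ranged from 1.00 to 1.26 for Wnt10b, 0.72 to 0.97 for Wnt10a and 0.39 to 0.50 for Wnt3. Wnt3a reversed to -0.023 without replicate 2 (in limma, IBMT and the Cyber-T type test alike) and -0.10 without replicate 3, and was 0.19 without replicate 1; with 1 pair left out, Wnt6 ranged from 0.09 to 0.24, Wnt11 from 0.05 to 0.17, Wnt5a from -0.22 to -0.08 and Wnt7b from -0.09 to -0.02. Under median centring Wnt7b was at -1.8e-05 and Wnt4 at -0.03. Centring on nearby probe sets left 4 ligands higher in all 3 pairs, against 5, and 2 lower, against 1. How far each probe set lies over background is not known here, and tests of lists that need gene names were not run.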
